A study of Mus musculus with 2 samples.

Results

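ERV2 elements, the class of endogenous retroviruses that holds the intracisternal A particle (IAP) family, were followed through germ cell differentiation in single cells of adult mouse testis. The members are the rows of the count table that are repeat consensus sequences rather than Ensembl genes and whose name carries the label ERV2, which gave 255 rows of 51868, among 1182 repeat rows in all. The rule used names only and no measured value. Each row stands for a consensus sequence from RepBase, to which reads that matched it were assigned, whatever copy they came from. A row therefore has no position in the genome, and no single insertion can be told from another. The genome used for alignment was repeat-masked, so reads from a copy inside the transcript of another gene can also count for the row. Cells came from whole testis of 2 untreated wild-type C57Bl/6J mice of 8 weeks, 1 library per mouse, so there was 1 condition and the comparisons made here are between cell classes. The unit of replication is the mouse (n = 2).

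ERV2 elements are remnants of retroviruses that once entered the germ line and are inherited like genes. A complete copy has an internal part, with the coding regions, between a pair of long terminal repeats (LTRs), of which the first holds the promoter and the second the polyadenylation signal. Recombination between both LTRs leaves a solo LTR, the commonest form in the genome. IAP and ETn/MusD elements still insert new copies in the mouse, and in germ cells they are held down by DNA methylation, by histone H3 lysine 9 methylation that KRAB zinc finger proteins direct, and by PIWI proteins with their piRNAs.

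The table held 57752829 unique molecular identifiers (UMIs, each counted as 1 captured transcript) in 2552 cells, 1237 from mouse 1 and 1315 from mouse 2, with a median per cell of 17871 and 19184 UMIs. No cell barcode was shared between the mice, and 25 cells (0.98%) were called doublets. Cells were grouped without any repeat row, and classes were named from marker genes. They comprised 162 early spermatocyte-like cells (cluster 6, led by Tex101 and Sycp1), 530 pachytene or later spermatocyte-like cells (cluster 2), 1139 round spermatid-like cells and 701 elongating or condensing spermatid-like cells. The round spermatid-like class joined cluster 1 (705 cells, led by Ssxb1 and Ssxb2, in which only 4 of 14 round spermatid markers and 3 of 14 pachytene markers stood at 1.5 times the level of all cells or more) with cluster 4 (434 cells, 11 of 14 markers). The elongating or condensing class joined cluster 5 (211 cells, in which 8 of 14 round spermatid markers also passed) with cluster 3 (490 cells), whose protamine and transition protein transcripts took 19.12% and 15.8% of UMIs in mice 1 and 2. Along a diffusion ordering the clusters followed each other as 6, 2, 1, 4, 5 and 3. The remaining 20 cells were 8 spermatogonium-like, 7 Sertoli-like and 5 Leydig-like cells.

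In all, 233 of the 255 ERV2 rows were detected, and 22 had no UMI. They held 85403 UMIs, which was 0.148% of the total, against 0.0308% for the 86 ERV1 rows and 0.0351% for the 129 ERV3 rows. At least 1 ERV2 UMI was found in 2549 cells, with a median of 29 per cell. The signal was concentrated: 6 rows held more than 50% of the ERV2 UMIs, the 10 rows with the most UMIs held 59.9%, and 92 rows reached 100 UMIs. By the start of their names, all 28 IAP rows were detected and held 47.2% of the ERV2 UMIs. The 118 RLTR rows held 23.4%, the 5 MMERVK rows 9.40%, the 42 RMER rows 8.24%, the 19 ERVB rows 7.96%, the 3 ETn and MusD rows 0.811%, the 3 MYSERV rows 0.265% and the remaining 37 rows 2.73%. RLTRETN_MM, an LTR of ETn elements with 2167 UMIs, counts as an RLTR row by its name, so the ETn and MusD group does not hold all ETn rows. Rows named as internal numbered 31 and held 38.7% of the UMIs. Rows that RepBase places in the genus Mus numbered 187 and held 92.5% of the UMIs, while both rows placed in Eutheria had none. A further 10 rows with related names but another class label, such as MMETN and RLTR1IAP_MM, held 2235 UMIs and were not counted as members.

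Among spermatocytes and spermatids, the ERV2 share of UMIs had high points in the early spermatocyte-like and the round spermatid-like class. It was lowest in the elongating or condensing class. For mice 1 and 2 the values were 0.155% and 0.212% in the early spermatocyte-like class and 0.119% and 0.142% in the pachytene or later class. They were 0.172% and 0.181% for round spermatid-like cells, and 0.0807% and 0.0959% for the elongating or condensing class. The few somatic cells had larger shares. Those named Sertoli-like reached 1.19% and 3.19%, while the Leydig-like cluster stood at 0.791% and 0.616%. The mice overlapped between early spermatocyte-like and round spermatid-like cells, whose means were 0.184% ± 0.0401 and 0.176% ± 0.00679 (SD, n = 2). They did not overlap between pachytene or later and round spermatid-like cells (0.130% ± 0.0163 against the latter), nor between those and elongating or condensing cells (0.0883% ± 0.0108). With 2 mice in each class no exact test can reach a p under 0.05, so none is given. One row carried much of the round spermatid share: without IAPLTR1a_I_MM it was 0.113% ± 0.00396, below the pachytene value without that row, 0.118% ± 0.0155. Within the elongating or condensing class the share was 0.134% and 0.142% in cluster 5 and 0.0473% and 0.0505% in cluster 3. The other retroviral classes shared part of this course. From round to elongating or condensing cells ERV1 went from 0.0336% to 0.0184% and ERV3 from 0.0357% to 0.0230% (means of both mice). Among spermatocytes and spermatids ERV3 was also highest in the early class, at 0.0602%. Between pachytene or later and round spermatid-like cells their shares were closer than those of ERV2, with ERV1 at 0.0329% ± 0.000113 and 0.0336% ± 0.00158 and ERV3 at 0.0366% ± 0.00122 and 0.0357% in both mice. This difference between classes of elements was not tested.

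**Figure D1:**
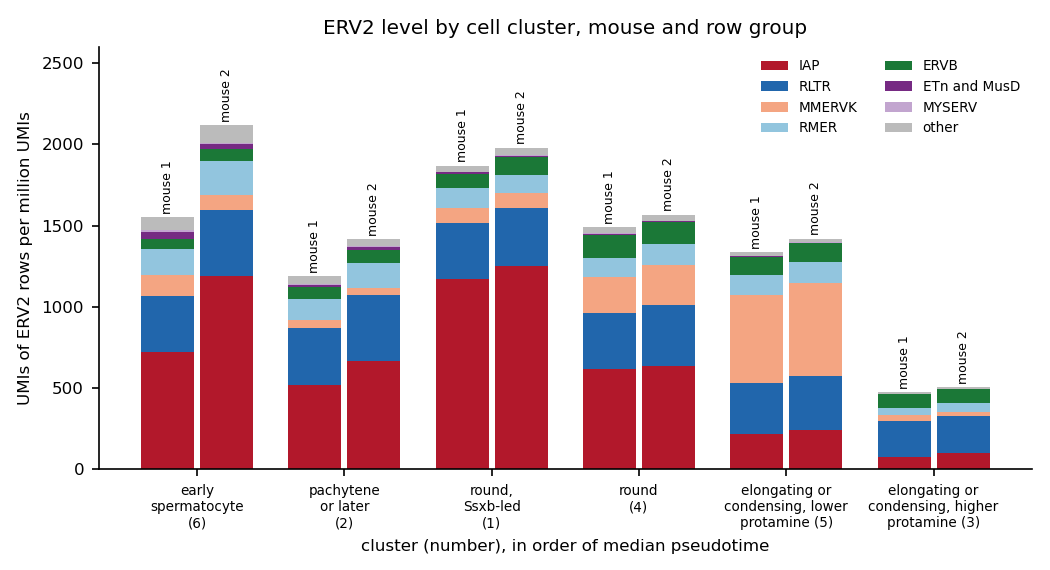
Stacked bars give the CPM of ERV2 rows (UMIs per 1000000 UMIs) in 6 clusters of spermatocytes and spermatids, 1 bar for each mouse, with the 8 groups of rows in colour and clusters in order of median pseudotime. IAP rows make up most of the Ssxb-led round spermatid-like bars (1169 and 1253 CPM), MMERVK rows are the largest part in cluster 5 (541 and 573), and the total is lowest in cluster 3.

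The make-up of the signal changed with the class. IAP rows stood at 726 and 1193 CPM (UMIs of these rows per 1000000 UMIs of the class) in the early spermatocyte-like class of mice 1 and 2 and at 519 and 669.5 in the pachytene or later class. They stood at 942 and 999.9 CPM in round spermatid-like cells and at 132.1 and 170.2 in the elongating or condensing class. The early spermatocyte-like values lay far apart, and that of mouse 1 was below both round spermatid values while that of mouse 2 was above them. MMERVK rows went from 130.1 and 95.4 CPM in the early class to 46.5 and 43.5 in pachytene or later cells and 147.5 and 158 in the round spermatid-like class, lower and then higher as IAP rows were in both mice. They differed in the last step, in which they stood at 228 and 295 CPM in the elongating or condensing class. RLTR rows moved less, between 257 and 405 CPM in the 8 sums of class and mouse. In cluster 3, where the ERV2 share was lowest, they were the largest group, with 46.8% and 46.1% of ERV2 UMIs.

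Individual rows peaked at different points, as the plot of the 10 rows with the most UMIs by cluster shows. IAPLTR1a_I_MM, the internal part of an IAP subfamily and the row with the most UMIs (18665), stood at 119.8 and 179.6 CPM in cluster 6 and at 114.3 and 126 in cluster 2 for mice 1 and 2. It reached 801 and 857 CPM in cluster 1, then 335 and 353 in cluster 4, 36.2 and 37.4 in cluster 5, and 7.66 and 17.6 in cluster 3. Among spermatocytes and spermatids both mice thus gave a single high point, in the Ssxb-led round spermatid-like cells. The values there did not overlap those of any other spermatocyte or spermatid cluster. Leydig-like cells, 1 of mouse 1 and 4 of mouse 2, stood at 700.6 and 564.8 CPM of this row. Counting intervals of these values were 281.7 to 1444 and 358.0 to 847.5 CPM. Sertoli-like cells had 110.3 and 490.9 CPM of it. MMERVK10C, a beta-retroviral element of the MMERVK group, had 7466 UMIs and a later high point. Its level was 121.7 and 80.9 CPM in cluster 6, 39.1 and 35.8 in cluster 2, 88.2 and 85.5 in cluster 1, 209 and 232 in cluster 4, 531 and 564 in cluster 5, and 24.8 and 14.2 in cluster 3. IAPLTR3_I, another IAP internal row (5033 UMIs), had its highest level at the start. It fell from 278 and 559.5 CPM in cluster 6 through 126.7 and 210.5 in cluster 2 to 19.9 and 27.2 in cluster 1, and stayed under 10 CPM in clusters 4, 5 and 3.

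Within spermatocytes and spermatids, the other leading rows divided among these positions. IAPEZI, an IAP internal row (3513 UMIs), was highest in cluster 1 (99.5 and 107.1 CPM) in both mice, with 74.0 and 105.7 in cluster 6, and lay at 1.77 and 2.03 in cluster 3. The few Sertoli-like cells were above these clusters, at 220.5 and 490.9 CPM of IAPEZI. IAPLTR3, the LTR that belongs with IAPLTR3_I, stood at 138 and 229 CPM in cluster 6 and at 141 and 192 in cluster 2, and both were above the values in every later cluster. RLTRETN_MM, an LTR of ETn elements, was highest in cluster 2 (54.4 and 61.0 CPM). RLTR9D2 was at 10.3 and 19 CPM in cluster 6 and between 49.9 and 85.2 in every later cluster. RLTR9D rose later, from 21.1 and 21.2 CPM in cluster 2 to 75.7 and 76.95 in cluster 4, and was at 64.8 and 69.7 in cluster 3. RLTR10 was highest in cluster 6 (52.4 and 59.9 CPM) and RLTR9E varied least of the 10, between 20.9 and 53.7 CPM. UMIs were not divided by the length of the consensus, so a higher CPM of 1 row than of another does not give a higher level per length.

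**Figure D2:**
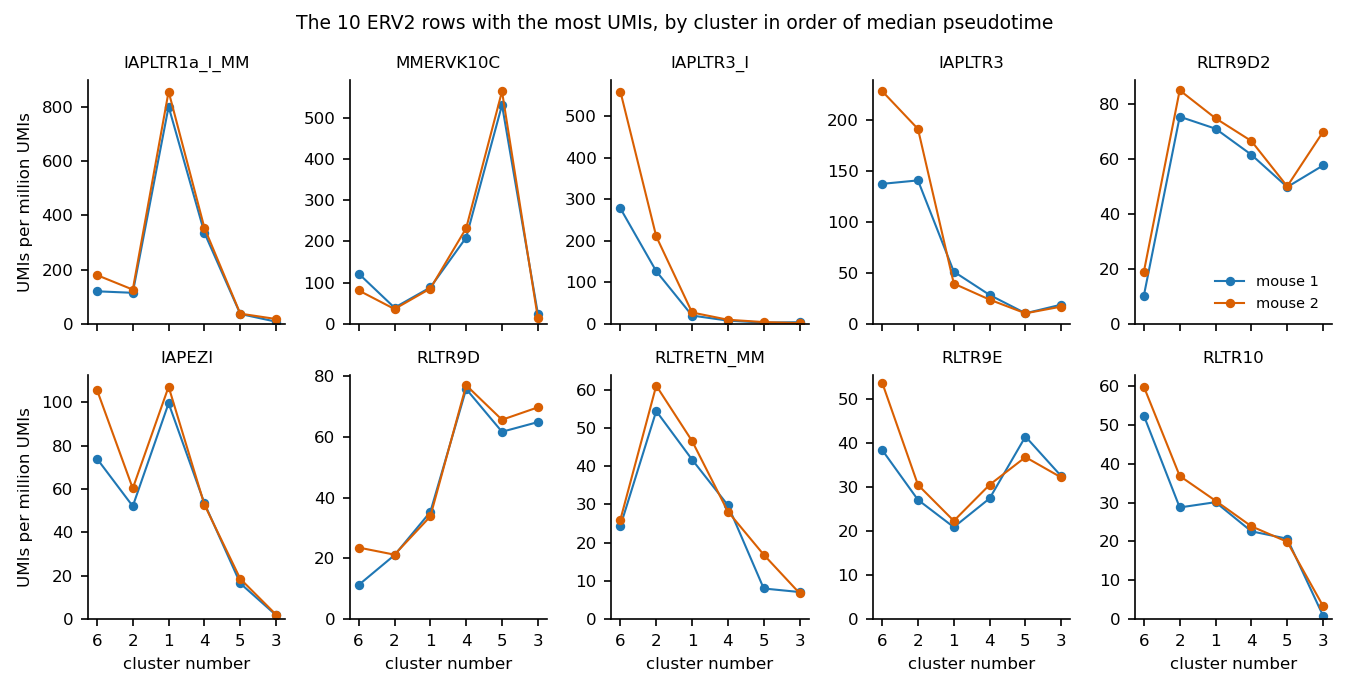
CPM (UMIs per 1000000 UMIs) of the 10 ERV2 rows with the most UMIs, 1 panel each, by cluster in order of median pseudotime (6, 2, 1, 4, 5, 3), with 1 line for each mouse and axes from 0. IAPLTR3_I is highest in cluster 6, RLTR9D2 and RLTRETN_MM in cluster 2, IAPLTR1a_I_MM and IAPEZI in cluster 1 and MMERVK10C in cluster 5, in both mice.

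Of the 92 rows with 100 UMIs or more, 60 had their highest CPM in the same spermatocyte or spermatid cluster in both mice. For 32 rows that cluster differed between mice. Those 60 rows comprised 26 in early spermatocyte-like cells, 7 in cluster 2, 9 in cluster 1, 7 in cluster 4, 9 in cluster 5 and 2 in cluster 3. No such count was made over all genes, so these numbers cannot be called particular to ERV2 rows. Cluster 6 had the smallest sums (1068201 and 2421642 UMIs), in which the CPM of rows with few UMIs is least exact. The 26 rows of cluster 6 held 13243 UMIs, while the 9 rows of cluster 1 held 25614 UMIs, most of them of IAPLTR1a_I_MM. IAP rows were 3 of the 26, 5 of the 9 in cluster 1 and 4 of the 9 in cluster 5.

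The order of these high points was also seen without clusters, when the 2532 spermatocytes and spermatids were cut into 12 bins along the ordering. IAPLTR3_I was highest in bin 1 (224 and 504 CPM), as was Sycp3, a component of the synaptonemal complex. IAPLTR1a_I_MM was highest in bin 6 (954 and 937 CPM), IAPEZI also in bin 6 (111.7 and 111.0 CPM), and the spermatid gene Ssxb1 in bin 6 of mouse 1 and bin 5 of mouse 2. MMERVK10C was highest in bin 9 (494 and 451 CPM), the bin in which the acrosomal gene Acrv1 was highest in both mice. The fall of IAPLTR1a_I_MM was steep, from 815 and 907 CPM in bin 7 to 363 and 425 in bin 8 and 70.9 and 93.4 in bin 9. MMERVK10C rose over the same bins, from 91.1 and 89.2 CPM in bin 7 to 124.9 and 149 in bin 8. The bins hold the same cells as the clusters and are no independent check.

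**Figure D3:**
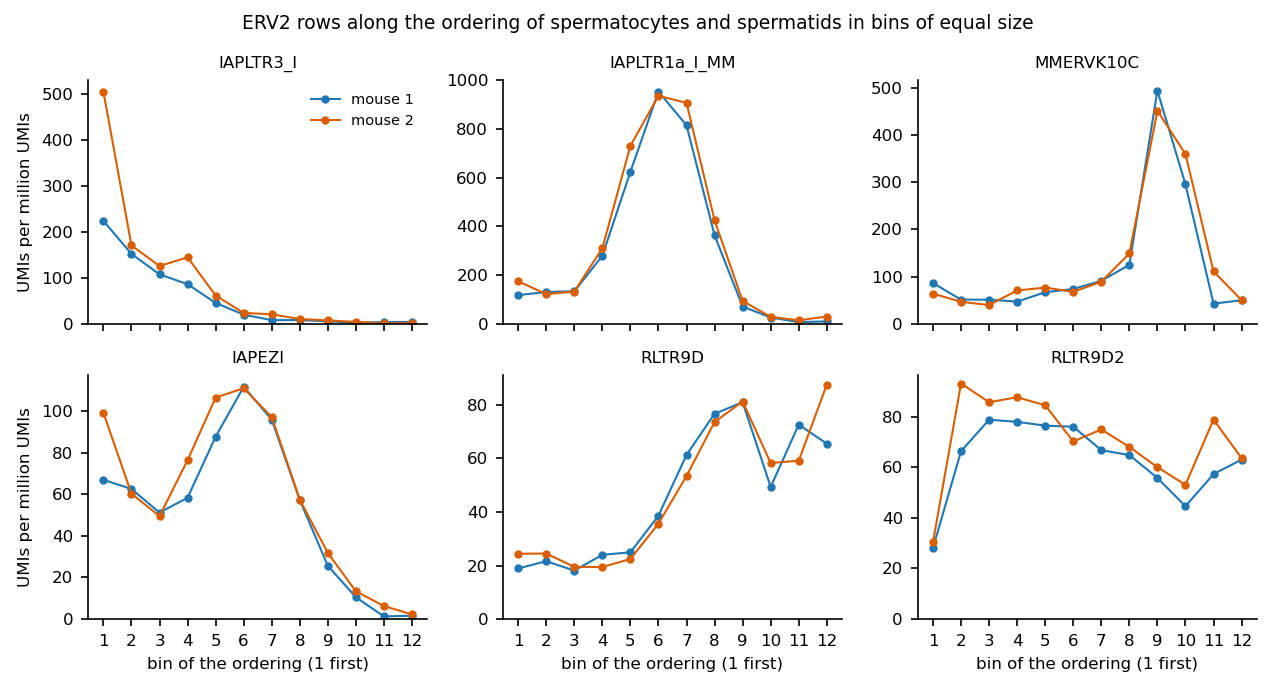
CPM (UMIs per 1000000 UMIs) of 6 ERV2 rows in 12 bins along the diffusion ordering of spermatocytes and spermatids, with 1 line for each mouse and axes from 0. IAPLTR3_I starts at its highest level in bin 1, IAPLTR1a_I_MM and IAPEZI are highest in bin 6, and MMERVK10C is highest in bin 9 in both mice.

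Between early and pachytene or later spermatocyte-like cells, few ERV2 rows passed the test for a change. The early sums were the smallest, at 1068201 and 2421642 UMIs, so a row that did not pass may still have changed. UMIs were summed per class and mouse and tested with edgeR's quasi-likelihood test, with Benjamini-Hochberg adjustment over all 15033 rows and genes that passed a filter on low counts. Of the ERV2 rows, 117 of 255 passed that filter. Fold changes are log2 values after TMM scaling, which sets the bulk of genes equal between sums. The test gives no SE, so the SE beside a fold change was derived from it. It is the absolute log2 change divided by the square root of the test's F statistic. In pachytene or later cells, 11 ERV2 rows were called higher and 14 lower, where 26.7% of all rows and genes tested were called higher and 21.9% lower. The split moved with the scaling and the test: 7 rows were called higher and 21 lower with DESeq2's size factors, 7 and 17 with DESeq2, and 7 and 25 with library totals alone. Here and below, the share of all rows and genes called is given for the reported fit only. Counts under other settings have no such share beside them and are no result about ERV2 rows. Without the early spermatocyte sum of mouse 2, only 6 rows were called lower. All 11 higher and 14 lower rows also moved that way in CPM in both mice. After TMM scaling, MurERV4_19, which was called lower, was lower in mouse 2 alone (log2 change 0.088 in mouse 1 and -1.605 in mouse 2).

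Among rows with at least 100 UMIs, the 3 largest rises in this step were those of RLTR rows. RLTR9D2 had 10.3 and 19 CPM in early and 75.6 and 85.2 CPM in pachytene or later cells, with a log2 fold change of 2.67 ± 0.22 (SE, edgeR, adjusted p = 9.47e-09). RLTR10D went from 5.62 and 4.13 to 20.8 and 26.0 CPM (2.67 ± 0.29, adjusted p = 2.66e-07). RLTR9B2 had 0 and 2 UMIs in the early sums against 31 and 29 in the later ones (edgeR, adjusted p = 0.00317), a ratio of CPM of 5.83 with a 95% counting interval of 1.55 to 49.3. RLTRETN_MM, an LTR of ETn elements, was also called higher (1.52 ± 0.20, adjusted p = 4.02e-06). In the other direction, IAPLTR2b, an IAP LTR, went from 15.9 and 26.8 to 3.14 and 2.01 CPM (-2.76 ± 0.33, adjusted p = 8.23e-07). ETnERV3, an ETn element, went from 30.0 and 21.9 to 6.38 and 6.17 CPM (-1.64 ± 0.26, adjusted p = 2.34e-05). RLTR20D_MM went from 13.1 and 32.2 to 3.24 and 4.43 CPM (-2.38 ± 0.36, adjusted p = 1.53e-05), and its adjusted p was 0.0517 without the early sum of mouse 2. MMERVK10C was called lower (-1.03 ± 0.18, adjusted p = 6.41e-05). IAPLTR3_I was called lower as well (-1.004 ± 0.27, adjusted p = 0.00372), but that call rested on mouse 2, without whose early sum the adjusted p was 0.524. For IAPLTR1a_I_MM the change was -0.0049 ± 0.19 (adjusted p = 0.998).

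Between pachytene or later and round spermatid-like cells most of the tested IAP rows rose, while the share of all ERV2 rows called higher was near that of all rows and genes. Of the 117 tested rows, 42 were called higher and 21 lower in round spermatid-like against pachytene or later cells, where 36.9% of all rows and genes were called higher and 33.5% lower. The median log2 fold change was 0.29 over the ERV2 rows and -0.0056 over everything tested. With DESeq2 the counts were 35 and 12, with its size factors 49 and 18, and with library totals 40 and 26. Of the 24 IAP rows tested, 17 were called higher and 3 lower, with a median of 1.45. Of the 11 ERVB rows 5 were called higher and none lower (median 0.73), of the 5 MMERVK rows 3 were called higher and none lower (0.99), and of the 45 RLTR rows 10 were called higher and 10 lower (-0.085). Internal rows were called higher in 14 of 23 cases and lower in 1. All called rows moved the same way in CPM in both mice.

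IAPLTR1a_I_MM went from 114.3 and 126 CPM to 610.0 and 650.0 CPM, with a log2 fold change of 2.59 ± 0.19 (adjusted p = 2.57e-10). IAPLTR2_Mm, an IAP LTR, went from 3.33 and 3.89 to 15.5 and 22.1 CPM (2.60 ± 0.25, adjusted p = 1.48e-08), and IAPLTR2b turned back up to 14.8 and 12.3 CPM (2.55 ± 0.28, adjusted p = 1.17e-07). Among rows with at least 100 UMIs, the 3 largest rises were those of IAP1-MM_LTR, ERVB7_2-LTR_MM and ERVB7_4-LTR_MM, all LTR rows. IAP1-MM_LTR went from 0.762 and 1.88 to 8.89 and 11.5 CPM (3.23 ± 0.33, adjusted p = 3.38e-08). ERVB7_2-LTR_MM went from 1.81 and 2.01 to 15.04 and 15.8 CPM (3.22 ± 0.26, adjusted p = 1.30e-09), and ERVB7_4-LTR_MM from 2.29 and 2.01 to 14.9 and 17.9 CPM (3.12 ± 0.25, adjusted p = 7.37e-10). MMERVK10C rose by 2.12 ± 0.16 on the log2 scale (adjusted p = 4.19e-10) and RLTR9D by 1.49 ± 0.18 (adjusted p = 4.25e-07). The 2 rows of IAPLTR3 went the other way. IAPLTR3_I had 14.8 and 20.1 CPM in round spermatid-like cells (-3.05 ± 0.29, adjusted p = 1.29e-08) and IAPLTR3 had 41.9 and 33.1 (-1.95 ± 0.22, adjusted p = 1.07e-07). RLTR20B1_MM went from 10.5 and 5.50 to 0.684 and 0.484 CPM (-3.60 ± 0.41, adjusted p = 1.93e-07), and RLTR20D_MM from 3.24 and 4.43 to 0.391 and 0.553 CPM (-2.71 ± 0.50, adjusted p = 7.78e-05). IAPEZI rose less (0.76 ± 0.18, adjusted p = 0.000660). RLTR9D2 and RLTR9E did not pass the test, with changes of -0.0062 ± 0.16 and -0.017 ± 0.17.

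**Figure D4:**
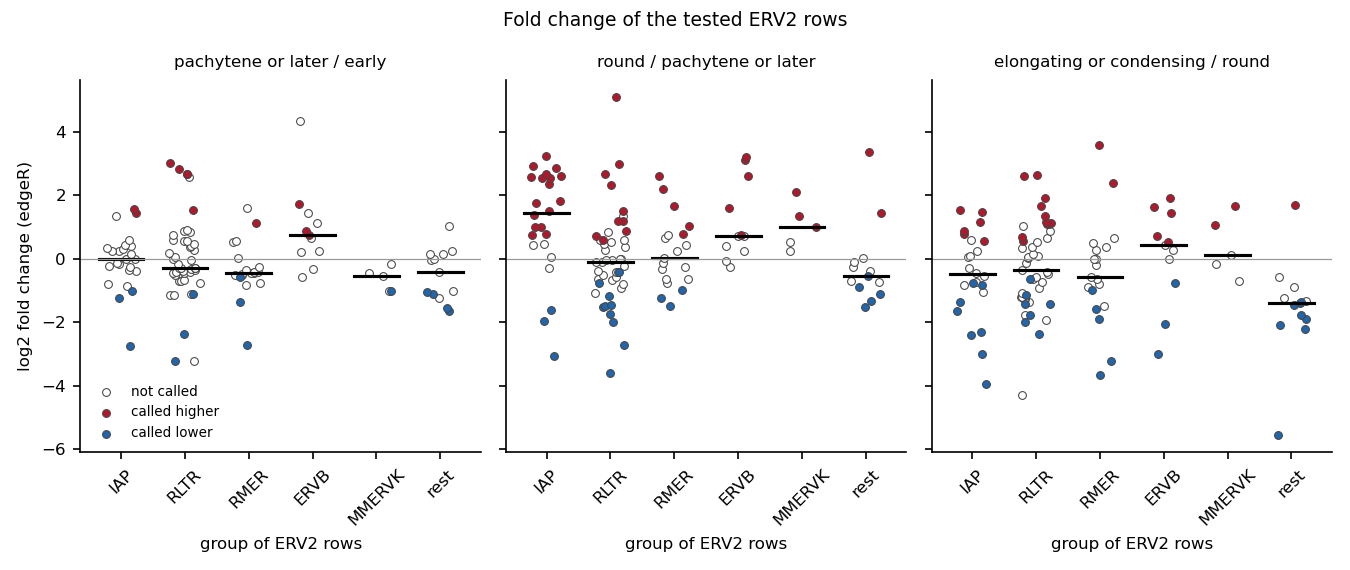
Log2 fold changes from edgeR of the 117 tested ERV2 rows in 3 comparisons of cell classes, 1 point for each row by group of rows (rest joins the ETn and MusD, MYSERV and other rows), with filled points for rows called higher (red) or lower (blue) and a bar at the median. IAP rows have a median of 1.45 in round against pachytene or later cells, and of -0.0094 and -0.49 in the comparisons before and after it.

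In elongating or condensing against round spermatid-like cells the call depended on scaling more than in any other class comparison. Protamine and transition protein transcripts took 14.9% and 11.5% of UMIs in this class, against 0.732% and 0.558% in round spermatid-like cells. With TMM scaling 26 ERV2 rows were called higher and 31 lower, where 27.9% of all rows and genes were called higher and 36.8% lower. With DESeq2's size factors the counts were 36 and 21, with DESeq2 32 and 15, and with library totals alone 12 and 63. Scaling also moved the rows and genes outside ERV2, so these counts cannot be called particular to ERV2 rows. The median over all rows and genes was -0.33, 0.080, 0.086 and -1.14 under these 4 settings, of which DESeq2 shares its size factors with the second and differs from it in the test, and that of the ERV2 rows was -0.49, -0.079, -0.051 and -1.28. Of the 26 rows called higher, 18 were also higher in CPM in both mice, 4 were lower in both, and 4 differed between mice. All 31 rows called lower were lower in CPM in both mice.

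Of the rows described next, those up to RLTR9D moved the same way in CPM and under every scaling. IAPLTR1a_I_MM was lower, at 18.7 and 27.4 CPM (-3.94 ± 0.22, adjusted p = 3.94e-12). IAPLTR2_Mm had 1.27 and 1.36 CPM (-3.01 ± 0.34, adjusted p = 1.60e-07), and IAPEZI had 7.43 and 10.2 CPM (-2.40 ± 0.22, adjusted p = 5.92e-09). RMER17C had 0 and 2 UMIs in elongating or condensing cells against 37 and 65 in round spermatid-like cells (edgeR, adjusted p = 0.000321), a CPM ratio of 23.5 with a 95% counting interval of 6.34 to 197. RMER12C had 1 and 0 UMIs against 16 and 23 (edgeR, adjusted p = 0.00666), a ratio of 18.0 with an interval of 3.04 to 728, and its adjusted p was 0.0880 with DESeq2 and 0.0934 without the elongating or condensing sum of mouse 2. Among the rises, RMER17C_I went from 1.76 and 1.11 to 6.52 and 12.6 CPM (3.60 ± 0.35, adjusted p = 1.82e-08), RLTR9F from 2.64 and 2.63 to 7.97 and 10.6 CPM (2.64 ± 0.28, adjusted p = 5.44e-08), and RMER16-int from 11.3 in each mouse to 34.4 and 32.9 CPM (2.40 ± 0.18, adjusted p = 3.17e-10). RMER17C and RMER17C_I, rows with 1 element name, therefore moved in opposite directions. MMERVK10C went from 137.9 and 145.6 to 219.6 and 287 CPM (1.66 ± 0.15, adjusted p = 9.85e-09). RLTR9E went from 23.5 and 25.7 to 35.9 and 34.4 CPM (1.34 ± 0.18, adjusted p = 1.50e-06) and RLTR9D from 51.9 and 51.5 to 63.6 and 67.7 CPM (1.17 ± 0.17, adjusted p = 6.84e-06), and the latter had an adjusted p of 0.0640 with library totals. For RLTR9D2 scaling decided the call. It was called higher (0.55 ± 0.17, adjusted p = 0.00636) although its CPM was lower in both mice, and with library totals the change was -0.27 (adjusted p = 0.110).

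Both spermatid classes were uneven inside, so neighbouring clusters were also tested, a choice made after the class values had been seen. Here 101 ERV2 rows were tested. In cluster 2 against cluster 6, 9 were called higher and 17 lower (25.9% and 24.6% of all), and 6 lower without cluster 6 of mouse 2. In cluster 1 against cluster 2, 29 were called higher and 19 lower (31.8% and 31.7% of all). Leaving out cluster 1 of mouse 2 left 18 higher, and leaving out cluster 6 of mouse 1 or of mouse 2 gave 31 and 29 lower. In cluster 4 against cluster 1, 20 were called higher and 9 lower (26.1% and 20.8% of all), and with the mouse as a replicate block the counts were 27 and 14, and with library totals 18 and 14. IAP rows divided: 7 were called higher and 8 lower of 25. The 8 lower rows included IAPLTR1a_I_MM (-1.01 ± 0.18, adjusted p = 7.62e-05) and IAPEZI (-0.71 ± 0.16, adjusted p = 0.000820). The 7 higher rows included both rows of IAP5-Mm (2.96 ± 0.39 for the internal part and 2.31 ± 0.39 for the LTR, adjusted p = 1.24e-06 and 3.02e-05) and both rows of IAP1-MM (1.97 ± 0.41 and 2.67 ± 0.28, adjusted p = 0.000303 and 3.78e-08). In cluster 5 against cluster 4, 19 rows were called higher and 11 lower (23.8% and 21.7% of all). Leaving out cluster 5 of mouse 2 left 12 higher, leaving out cluster 5 of mouse 1 left 7 lower, and with library totals the counts were 11 and 22. In cluster 3 against cluster 5, 7 rows were called higher and 33 lower (16.3% and 23.2% of all), with a median of -1.17 over the ERV2 rows against -0.0052 over everything tested. Leaving out cluster 3 or cluster 5 of mouse 2 left 21 lower in each case, and the higher calls were 4 without cluster 3 of mouse 2, and 3 without cluster 5 of mouse 1. With library totals the counts were 1 and 48, and with the size factors of DESeq2 they were 10 and 22. By group, 12 of 25 IAP and 8 of 18 RMER rows were called lower in cluster 3. The 8 of 33 RLTR rows called lower were near the 23.2% of all rows and genes.

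Internal and LTR rows of 1 element did not always keep a fixed ratio. In 16 pairs of rows with matching names, the internal row held 95.8% of the UMIs of IAPLTR1a and 51.8% of those of IAPLTR3. For IAPLTR3 the internal share was 70.2% in cluster 6, 49.9% in cluster 2, 35.2% in cluster 1, 25.7% in clusters 4 and 5, and 13.6% in cluster 3, so the fall of the internal row outpaced that of the LTR row. For IAPLTR1a it was between 91.5% and 97.1% in clusters 6, 2, 1 and 4, and 78.5% and 80.4% in clusters 5 and 3. For ERVB4_1B it was 34.4% in cluster 6 and 26.6% in cluster 2, 59.4% in cluster 5 and 58.8% in cluster 3. In Sertoli-like and Leydig-like cells it was 80.3% and 83.25%, and whether RNA from such cells added to the germ cell values was not tested. These shares pool both mice and were not tested. The library kit reads transcripts near their 3' end, so a share does not give how much of each part was transcribed. Reads that match several similar consensus sequences may have been lost in counting, so the levels of related rows and the ratio between them are uncertain.

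Most spermatocyte-like cells carried a UMI of each of the 3 rows with the most UMIs, and most round spermatid-like cells 1 of IAPLTR1a_I_MM and of MMERVK10C. A UMI of IAPLTR1a_I_MM was found in 87.0% of early, 81.5% of pachytene or later, 94.6% of round and 19.12% of elongating or condensing cells, whose median depths were 19673, 20771, 19875 and 13138 UMIs. After thinning every cell to 5000 UMIs, the shares were 48.8%, 41.3%, 82.3% and 7.42%. Within the round spermatid-like class, the thinned share was 93.05% in cluster 1 (95% exact binomial interval 90.9% to 94.8%) and 64.7% in cluster 4 (60.1% to 69.2%). For MMERVK10C the shares were 75.3%, 59.25%, 79.5% and 34.1% in the 4 classes before thinning. After it they were 29.0%, 20.4%, 42.2% and 23.0%, and within the last class 65.4% in cluster 5 (58.6% to 71.8%) and 4.69% in cluster 3 (2.998% to 6.96%). For IAPLTR3_I they were 91.4%, 68.3%, 30.3% and 3.99% before thinning and 77.2%, 34.9%, 9.22% and 1.57% after it. No cell type here is known to lack these elements, so no share can serve as a background level. Intervals pool the cells of both mice and cover counting error only, not the spread between mice. The 26 cells with the most UMIs of a row, 1% of cells, held 8.97% of the UMIs of IAPLTR1a_I_MM, 16.6% of MMERVK10C and 20.6% of IAPLTR3_I. The highest count of IAPLTR1a_I_MM in 1 cell was 152 UMIs.

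Over all cells of each mouse, with all classes joined, the level of most rows differed little. Of 54 rows with 100 UMIs or more in each mouse, 42 were higher in mouse 2 and 12 in mouse 1, the median log2 ratio of CPM was 0.15, and no row differed over 2-fold. The widest gaps were those of IAPEY4_I (7.61 CPM in mouse 1 and 4.65 in mouse 2), IAPLTR3_I (65.7 and 106.6) and IAPLTR2_Mm (7.65 and 11.98). IAPLTR3_I was higher in mouse 2 in 3 of the 4 classes, and mouse 2 gave 111 of the 162 early spermatocyte-like cells, the class in which that row was highest. Gaps could be wider at 1 stage, as for IAPLTR3_I in bin 1 of the ordering (224 CPM in mouse 1 and 504 in mouse 2). IAPEY4_I was higher in mouse 1 in 2 of the classes. Of its 209 UMIs in mouse 1, the 6 Sertoli-like cells gave 73 and 1 spermatogonium-like cell gave 16, and in spermatocytes and spermatids its level was 4.06 and 3.18 CPM. With 1 animal against 1 there is no test, and an animal and its library cannot be told apart.

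In the few somatic cells another set of ERV2 rows stood out, led by ERVB4_1B, a beta-retroviral element. The 3 rows named here were chosen for their ratio between the small clusters and the germ cells, so the values are a description. ERVB4_1B-I_MM stood at 7098 CPM in the 6 Sertoli-like cells of mouse 1 and at 22500 CPM in the single one of mouse 2, at 3203 and 3241 CPM in Leydig-like cells, and at 8.89 and 10.1 CPM in all spermatocytes and spermatids. ERVB rows gave 76.4% and 84.4% of the ERV2 UMIs of Sertoli-like cells, and 50.6% and 62.6% of those of Leydig-like cells. As the plot of single cells shows, the 7 Sertoli-like cells were uneven, with 299, 275 and 171 UMIs of this row in 3 cells and 19, 16, 5 and 5 in the other 4, at 7927 to 19582 UMIs per cell. IAPEY4_I, an IAP internal row, had 7 to 21 UMIs in 6 of the Sertoli-like cells and 0 in the remaining one, which was the cell with 171 UMIs of ERVB4_1B-I_MM. Sertoli-like cells had 1006 and 1718 CPM of it and Leydig-like cells 901 and 589 CPM, against 4.06 and 3.18 in germ cells.

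These cells were checked against their markers. All 9 Leydig and 13 of 14 Sertoli markers reached 1.5 times the level of all cells in their cluster. The clusters had been named from these lists, so this is no independent check. The Sertoli markers summed to 28610 and 33380 CPM in Sertoli-like cells, and to 7307 and 8177 CPM in Leydig-like cells. Of these markers, Leydig-like cells had 4104 and 4347 CPM of Defb19, 2602 and 2849 of Clu, and 200.2 and 171.9 of Amhr2. The Sertoli gene Cst12 had no UMI in them. Leydig markers summed to 55.1 and 81.8 CPM in Sertoli-like cells, in which Insl3 and Cyp17a1 had no UMI. In spermatocytes and spermatids the level of ERVB4_1B-I_MM was 0.125% and 0.0447% of its Sertoli-like level in mice 1 and 2, and that of Clu, an abundant Sertoli cell transcript, was 0.127% and 0.0791%. ERVB4_1B-I_MM was also called higher in round against pachytene or later cells (0.76 ± 0.22, edgeR, adjusted p = 0.00462). Its Sertoli-like level rests on few, uneven cells, and the source of its germ cell UMIs was not tested. As a share of the Sertoli-like level, other Sertoli genes stood in germ cells at 0.124% and 0.0663% (Amhr2), 0.165% and 0.122% (Cst12), and 0.246% and 0.168% (Defb19). ERVB4_1B-LTR_MM stood higher in germ cells by the same measure (0.727% and 0.467%), at 14.5 and 18.7 CPM. The 8 spermatogonium-like cells, which also carried 11 of 14 early spermatocyte markers, had an ERV2 share of 0.241% and 0.0933%. In mouse 1, 1 of them gave 82 of the 108 ERV2 UMIs and also had 30 UMIs of Clu and 12 of Defb19, both Sertoli genes.

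**Figure D5:**
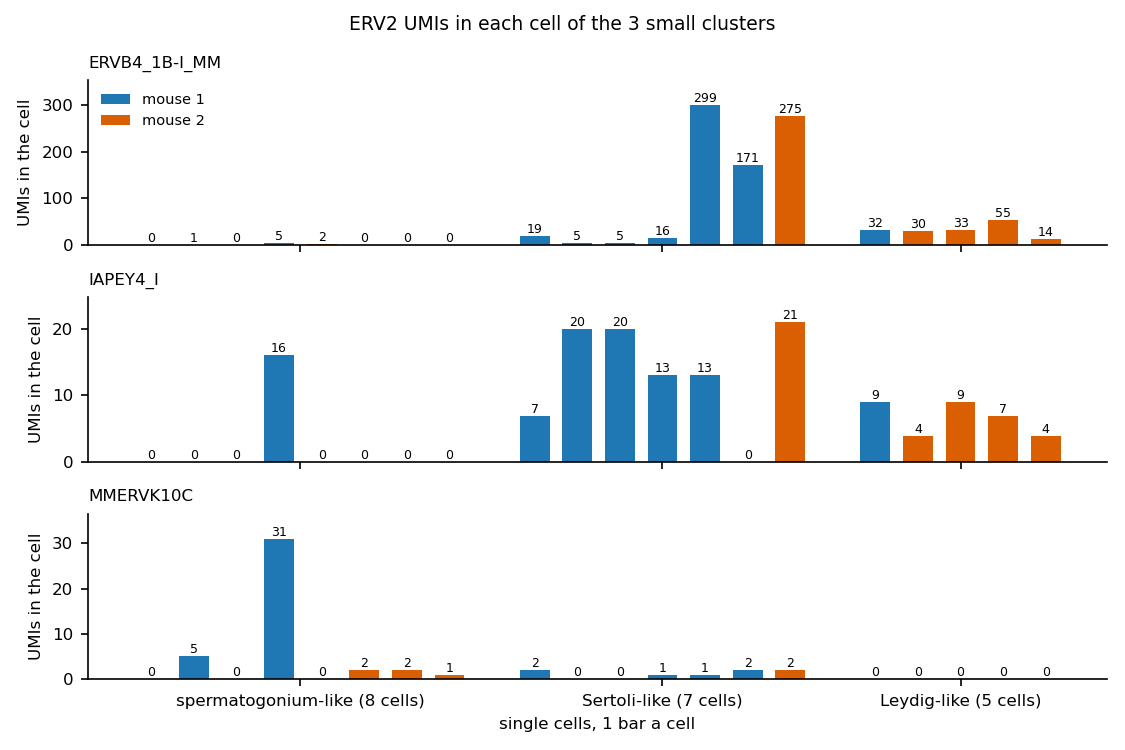
UMIs of 3 ERV2 rows in each cell of the small clusters, 1 bar for each cell with its count above, coloured by mouse and grouped as 8 spermatogonium-like, 7 Sertoli-like and 5 Leydig-like cells. ERVB4_1B-I_MM reaches 299, 275 and 171 UMIs in 3 Sertoli-like cells and 14 to 55 in Leydig-like cells, while MMERVK10C is highest, at 31, in 1 spermatogonium-like cell.

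Among genes with known parts in silencing of endogenous retroviruses, more were called lower than higher in each step. The list held 57 names of 56 genes, since Resf1 was also listed under its older symbol 2810474O19Rik. All 56 genes were found and 48 were tested. In pachytene or later against early cells 9 were called higher and 26 lower (26.7% and 21.9% of all rows and genes tested). In round against pachytene or later cells these were 9 and 28 (36.9% and 33.5% of all). In elongating or condensing against round cells they were 3 and 29 (27.9% and 36.8% of all). Over all rows and genes, lower calls thus outnumbered higher ones in the last step alone. The higher calls of the first step were unstable, being 3 with DESeq2, with its size factors and with library totals, 4 without the early sum of mouse 1, and 5 without either pachytene or later sum. In the last step the counts were 8 higher and 18 lower with DESeq2, 8 higher with its size factors and 1 higher with library totals. By role, the 25 tested piRNA and germline genes had 4 higher and 16 lower, 5 and 14, and 1 and 14 calls in the 3 steps, the 18 genes of H3 lysine 9 methylation and KRAB zinc finger silencing had 5 and 8, 3 and 12, and 1 and 13, and the 5 DNA methylation genes had 0 and 2, 1 and 2, and 1 and 2.

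In the first step Tex19.1, a germline gene that restrains retrotransposons, went from 41.2 and 33.5 to 1.14 and 1.88 CPM (-4.27 ± 0.31, adjusted p = 1.61e-09), and Morc1, needed for transposon silencing in male germ cells, from 11.2 and 13.2 to 1.24 and 0.671 CPM (-3.28 ± 0.42, adjusted p = 2.31e-06). Tdrd7, a chromatoid body protein, rose from 54.3 and 71.4 to 169.9 and 149.7 CPM (1.66 ± 0.18, adjusted p = 3.24e-07). Mov10, a helicase, had 2 UMIs in early and 38 in pachytene or later cells (edgeR, adjusted p = 0.0473), a CPM ratio of 3.69 with a 95% counting interval of 0.955 to 31.6. In the step in which most IAP rows rose, members of the HUSH complex, which silences retroelements through H3 lysine 9 methylation, moved apart. Mphosph8 went from 261 and 235 to 14.8 and 13.4 CPM (-3.93 ± 0.16, adjusted p = 4.21e-14), and Pphln1 from 17.3 and 13.4 to 355 and 399 CPM (4.80 ± 0.19, adjusted p = 3.26e-14). Piwil1, the PIWI protein of pachytene cells and 1 of the markers that named the classes, went from 159 and 169.7 to 11.8 and 11.2 CPM (-3.63 ± 0.16, adjusted p = 1.43e-13), and Tex15, a germ cell protein of piRNA-guided silencing, from 3.72 and 2.82 to 74.0 and 86.9 CPM (4.80 ± 0.22, adjusted p = 2.08e-13). Along the ordering Piwil1 was highest in bin 1 (674 and 643 CPM), the bin that held the early spermatocyte-like cells. In the last step 2810474O19Rik (Resf1) and Pnldc1, a piRNA trimming enzyme, had 38 and 16 UMIs in round spermatid-like cells. Neither had a UMI in elongating or condensing cells (edgeR, adjusted p = 0.00658 and 0.0205). Set against 3 counts in that class, their CPM was at least 5.84-fold and at least 2.46-fold lower. Dnmt3a, a de novo DNA methyltransferase, had 9 UMIs in round and 33 in elongating or condensing cells (3.74 ± 0.63, adjusted p = 2.68e-05). Gtsf1, a cofactor of PIWI proteins, was called higher (0.63 ± 0.16, adjusted p = 0.00161) at a lower CPM in both mice, 886 and 1019 against 1105 and 1082. These are transcript levels, and in counts per class fewer transcripts of a gene and more of others cannot be told apart.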

How the data were processed

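The authors aligned reads with Cell Ranger 2.0.0 (bcl2fastq 2.17.1.14 before it, build mm10 per the labels) to a repeat-masked genome to which RepBase consensus sequences had been added as separate chromosomes, counted UMIs and combined both mice with reads downsampled to equal depth per cell. The deposited values are raw UMI counts per row and cell. Cells (no further filter) were log-normalised, reduced to 10 principal components of 27224 gene rows, with repeat rows and the listed silencing genes left out, and clustered by K-means (K = 9, scikit-learn 1.9.0, seed 42). Clusters were named from marker lists, with at least 3 markers at 1.5 times the level of all cells. The ordering was a diffusion pseudotime (scanpy 1.11.5). UMIs were summed per mouse and class and tested with edgeR 4.0.16 (R 4.3.3: TMM, filterByExpr, glmQLFTest, all 4 classes in 1 fit, p-values adjusted over all rows). The fit was tested on simulated data. Alternatives were DESeq2 1.42.0, other scalings and filters, the mouse as a block, sums left out, other clusterings and removal of doublets.

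Named rows were the 10 with the most UMIs, the 3 with the largest called change in each direction of each comparison (at least 100 UMIs, both mice alike), the 3 with the largest ratio between small clusters and germ cells, and the 3 with the largest ratio between mice, and rows beside them in the text were picked after their values were seen. Of the listed genes the 2 with the largest change in each direction were named. Members and lists were chosen with earlier results of these data known. Sums of 1 mouse come from the same animal, which pairs them, and the correlations of their deviations from the class means ran from 0.0404 to 0.23 over 15033 rows. The p-values set a difference between classes against a spread shared by the classes and moderated over all rows. That spread comes from these 2 animals alone. The reported fit has no term for the mouse and takes sums of 1 animal as independent. Sequences of the consensus rows were not used here.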

Additional observations from a re-analysis of the deposited data

Results flagged for a closer look

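The 3 rows with the largest ratio of small clusters to germ cells were seen in cells that entered none of the tested comparisons, at levels whose 95% counting intervals lay above the highest upper limit in spermatocytes and spermatids. ERVB4_1B-I_MM was at 7098 and 22500 CPM in Sertoli-like and 3203 and 3241 CPM in Leydig-like cells of mice 1 and 2, against an upper limit of 11.3 CPM in germ cells. ERVB4_1B-LTR_MM was at 1998 and 4009 CPM in Sertoli-like and 801 and 614 CPM in Leydig-like cells, against 20.3 CPM. IAPEY4_I was at 1006 and 1718 CPM in Sertoli-like and 901 and 589 CPM in Leydig-like cells, against 4.89 CPM. The Sertoli-like values rest on 6 cells of mouse 1 and 1 of mouse 2, the Leydig-like values on 1 and 4. The rows were selected for this ratio, so levels above those of germ cells follow from the choice. The intervals cover counting error only and not the spread between cells. Single Sertoli-like cells held from 5 to 299 UMIs of ERVB4_1B-I_MM. The level in Leydig-like cells goes with Sertoli markers at 7307 and 8177 CPM, whose part in it was not tested.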

How the results depend on the processing

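With 2 animals, 1 low sum can decide a call. The counts under other settings in this section are given without the share of all rows and genes called under the same setting. Between classes, scaling moved the counts of ERV2 calls most in elongating or condensing against round cells. Counts of ERV2 calls between classes stayed within 1.5 times the reported count 46 times over the settings that kept all sums and left it 8 times, and those between clusters did so 51 and 9 times. The exceptions in pachytene or later against early spermatocyte-like cells were 7 rows higher with DESeq2, 7 with its size factors and 7 with library totals, and 25 lower with library totals. In round against pachytene or later cells DESeq2 called 12 lower. In elongating or condensing against round cells DESeq2 called 15 lower, and library totals gave 12 higher and 63 lower. Between clusters they were 15 higher with no filter and 26 lower with size factors in cluster 2 against 6, 14 lower with library totals in cluster 4 against 1, 22 lower with no filter and 11 higher and 22 lower with library totals in cluster 5 against 4, and 21 lower with DESeq2 and 1 higher with library totals in cluster 3 against 5. Of the silencing genes, the first step had 3 higher calls with DESeq2, 3 with size factors and 3 with library totals, and the last had 8 higher with DESeq2, 8 with size factors and 1 with library totals, and 18 lower with DESeq2. DESeq2 changes both the scaling and the test, and the cause of these moves was not tested.

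With the mouse as a replicate block, which follows the pairing of sums from 1 animal, 14 rows were called lower in cluster 4 against cluster 1, and no other count of ERV2 or silencing gene calls moved by over 1.5 times. No call of a named row was lost, and 10 changes of named rows passed the test with the block alone, among them that of IAPLTR3 in elongating or condensing against round cells. The class counts under the block were 14 higher and 18 lower, 47 and 25, and 30 and 36 in the 3 steps.

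Of the named rows called with TMM scaling, with library totals or with both, 5 changed sign in elongating or condensing against round cells with library totals: RLTR9D2 (-0.27), RLTR9B2 (-0.74), RLTR10D (-0.68), IAP1-MM_LTR (-0.024) and ERVB7_2-LTR_MM (-0.12 on the log2 scale). A change of sign in a row called under neither setting was not counted. Under the settings that kept all sums, changes of named rows stayed on their side of the threshold 700 times, passed it anew 39 times and lost it 12 times.

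Leaving out each sum in turn gave 8 to 13 higher and 6 to 18 lower ERV2 calls in the first class step, 37 to 47 and 14 to 24 in the second, and 19 to 28 and 25 to 34 in the third. Between clusters the ranges were 7 to 11 and 6 to 17 in cluster 2 against 6, 18 to 32 and 14 to 31 in cluster 1 against 2, 18 to 23 and 6 to 13 in cluster 4 against 1, 12 to 21 and 7 to 11 in cluster 5 against 4, and 3 to 8 and 21 to 33 in cluster 3 against 5. The low counts of 6 came without cluster 6 of mouse 2 and without cluster 4 of mouse 1, the 18 higher without cluster 1 of mouse 2, and 31 and 29 lower without cluster 6 of mouse 1 and of mouse 2. A class left with 1 sum is assumed to vary like the others. Silencing genes gave 4 to 10 higher and 21 to 26 lower, 9 higher throughout and 25 to 29 lower, and 3 to 4 higher and 24 to 29 lower.

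The ERV2 share of round spermatid-like cells was 0.113% without the row with the most UMIs, and that of elongating or condensing cells was 0.102% when protamine and transition protein UMIs were left out of the total. By 1 mouse alone the shares ran from 0.155% to 0.212%, 0.119% to 0.142%, 0.172% to 0.181% and 0.0807% to 0.0959% in the 4 classes. Other clusterings and the removal of doublets left every class share within 1 SD of the reported one.

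Thinning to 5000 UMIs lowered each share of cells with a UMI, since fewer UMIs per cell remain. For IAPLTR1a_I_MM the shares were 48.8%, 41.3%, 82.3% and 7.42% in the 4 classes, for MMERVK10C 29.0%, 20.4%, 42.2% and 23.0%, and for IAPLTR3_I 77.2%, 34.9%, 9.22% and 1.57%. By 1 mouse alone the unthinned shares ran from 78.4% to 91.0%, 79.5% to 82.96%, 94.2% to 95.2% and 17.2% to 21.2% for IAPLTR1a_I_MM, from 70.6% to 77.5%, 58.0% to 60.1%, 78.6% to 80.7% and 29.8% to 38.8% for MMERVK10C, and from 88.2% to 92.8%, 66.6% to 70.8%, 26.3% to 33.4% and 3.88% to 4.10% for IAPLTR3_I.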
